A study of Mus musculus with 9 samples.

Results

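In all, 10 genes of the tumor necrosis factor (TNF) and NF-κB pathway were followed in RAW 264.7 macrophages, an established mouse macrophage-like cell line, after treatment with lipid emulsion particles. The genes were chosen by symbol: the ligand *Tnf*, the receptors *Tnfrsf1a*, *Tnfrsf1b* and *Tnfrsf11a*, the NF-κB subunits *Nfkb1*, *Nfkb2*, *Rela* and *Relb*, and the inhibitors *Nfkbia* and *Tnfaip3*. Each of the 10 symbols matched 1 row of the deposited table of 54432 genes, and all 10 were among the 12637 genes tested. RNA was sequenced from 3 groups with 3 libraries each: untreated cells, cells exposed for 6 hours to 1 mM VLDLsep (artificial particles of the size of very low-density lipoprotein) and cells exposed for 6 hours to 1 mM CHYLsep (artificial particles of chylomicron size). All 9 libraries came from the same line in the same serum-containing medium, and untreated cells received no particles. The methods describe biological triplicates in which cells of a condition and experiment were combined, so a library is a pool. The p-values therefore measure the spread between pools of a single line.

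TNF is a cytokine made as a membrane protein and released by cleavage. It binds TNF receptor 1 (encoded by *Tnfrsf1a*), which is present on most cells, and TNF receptor 2 (*Tnfrsf1b*), which is found mainly on immune and endothelial cells. *Tnfrsf11a* encodes RANK, the receptor through which macrophage-lineage cells are driven to become osteoclasts. Receptor binding activates a kinase complex that marks IκBα (*Nfkbia*) for degradation, after which dimers of p65 (*Rela*) and p50 (from *Nfkb1*) enter the nucleus. In the slower non-canonical branch, p52 (from *Nfkb2*) acts together with RelB. *Nfkbia*, *Tnfaip3* (encoding the ubiquitin-editing enzyme A20), *Nfkb2* and *Relb* are themselves textbook targets of NF-κB, so that their messenger RNA (mRNA) is commonly read as a sign of pathway activity.

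Because κB sites are the DNA elements that NF-κB dimers bind, the 250 bases before the annotated starts were searched for the κB consensus on both strands (RefSeq, GRCm38.p6). Windows were present for 8 of the 10 genes, 11 windows in all, and *Nfkb1* and *Relb* had none. A match was found in every window of *Nfkb2*, in the only window of *Nfkbia* and in 1 window of *Tnfaip3*, which has another without one. Of all 32851 windows 3.9% held one. These genes are textbook NF-κB targets and were chosen for this pathway, so the share is given for scale and no enrichment was tested. The sequences below were chosen to show these matches and the windows of the ligand and of the 2 receptors with the largest changes. They are written 5′ to 3′ with κB matches in capitals, and of windows that overlap annotated exons by more than a few bases only the match and its nearest bases are shown. *Nfkb2* has 3 annotated starts, of which the first is shown and the others had 1 match each.
Nfkb2, match beginning 39 bases before the start, chr19:46304689-46304717, plus strand: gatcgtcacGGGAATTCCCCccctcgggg
Nfkb2, match beginning 11 bases before the start, chr19:46304716-46304736, plus strand: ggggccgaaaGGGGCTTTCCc
Tnfaip3, match beginning 125 bases before the start, chr10:19015516-19015545, minus strand: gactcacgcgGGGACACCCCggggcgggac
Tnfaip3, match beginning 12 bases before the start, chr10:19015411-19015432, minus strand: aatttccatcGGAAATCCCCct
Nfkbia, chr12:55492648-55492897, minus strand: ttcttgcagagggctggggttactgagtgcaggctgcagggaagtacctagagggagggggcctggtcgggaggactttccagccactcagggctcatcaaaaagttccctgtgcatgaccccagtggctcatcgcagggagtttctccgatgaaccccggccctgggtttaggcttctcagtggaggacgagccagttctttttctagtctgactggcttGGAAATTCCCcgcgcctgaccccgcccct
Tnf, chr17:35202008-35202257, minus strand: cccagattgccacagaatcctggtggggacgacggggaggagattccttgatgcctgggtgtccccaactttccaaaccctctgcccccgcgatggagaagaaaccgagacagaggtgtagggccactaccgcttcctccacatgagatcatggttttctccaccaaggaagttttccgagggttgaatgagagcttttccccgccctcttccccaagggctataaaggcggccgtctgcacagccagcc
Tnfrsf1b, chr4:145246871-145247120, minus strand: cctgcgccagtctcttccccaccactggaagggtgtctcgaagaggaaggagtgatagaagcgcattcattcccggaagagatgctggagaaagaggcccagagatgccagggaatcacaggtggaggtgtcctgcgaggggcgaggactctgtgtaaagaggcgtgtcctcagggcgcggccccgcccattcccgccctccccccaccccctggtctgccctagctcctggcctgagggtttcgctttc
Tnfrsf11a, chr1:105780473-105780722, plus strand: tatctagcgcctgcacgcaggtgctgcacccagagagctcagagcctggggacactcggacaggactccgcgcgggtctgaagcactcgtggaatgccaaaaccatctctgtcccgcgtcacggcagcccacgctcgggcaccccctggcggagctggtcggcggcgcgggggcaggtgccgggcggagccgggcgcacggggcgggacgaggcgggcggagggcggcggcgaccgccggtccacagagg
The windows of *Tnf*, *Tnfrsf1b* and *Tnfrsf11a* held no κB match, which says only that these letters are absent from these bases. The *Tnf* window held a TATA box (TATAAA, in 12.4% of all windows), and the *Tnfrsf11a* window held 4 matches to the GC box (GGGCGG, either strand), which 32.7% of all windows held. A match is a description of the sequence and not a measured binding site.

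Depth was nearly equal, with 22393893 to 22856792 estimated counts per library, and the members had between 50 counts (*Tnfaip3*) and 6775 counts (*Tnfrsf1b*) in a library. Macrophage identity was clear, as all 10 macrophage markers examined were expressed. Their summed level was 6532 to 6610 cpm (counts scaled to the library total) in untreated libraries, 5827 to 6020 cpm after VLDLsep and 5983 to 6188 cpm after CHYLsep. It was thus lower after both particles. Of the 10 markers, 6 were called lower and 1 higher after VLDLsep (17.9% and 17.8% of all genes tested), and 3 lower and 0 higher after CHYLsep (13.0% and 12.7%). The largest parts of the sum were *Lyz2* and *Csf1r*, with untreated means of 2429 and 1351 cpm. The mean of *Cx3cr1* fell from 70.3 cpm to 13 cpm after VLDLsep and 18.9 cpm after CHYLsep, whereas that of *Cd68* rose from 928 cpm to 1044 and 1017 cpm. The part of these marker changes in the results below was not tested. Of 10 markers of lymphoid, epithelial, stromal, endothelial and liver cells, 6 had no count in any library, and their summed level stayed between 0.211 and 1.03 cpm in all libraries. The replicate 3 libraries stood apart in every group: a chi-square per degree of freedom between libraries of a group was 12.1 to 15.3 for pairs with replicate 3 and 3.41 to 5.09 for pairs of replicates 1 and 2. Some results are therefore also given without the replicate 3 libraries.

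Levels below are cpm after TMM normalization (a trimmed mean of the log ratios between libraries), and the tests are those of limma with voom weights, two-sided, with Benjamini-Hochberg adjustment over all genes tested. A gene is called at an adjusted p under 0.05. Compared with untreated cells, 5 of the 10 members were called after VLDLsep, where 35.6% of all genes tested were called. *Tnfrsf1b* and *Nfkb2* were higher (17.8% of all genes were called higher), and *Tnf*, *Tnfrsf11a* and *Nfkb1* were lower (17.9%). After CHYLsep 4 members were called, against 25.7% of all genes. These were *Tnfrsf1b* and *Nfkb2*, which were higher (12.7% of all genes), and *Tnfrsf11a* and *Nfkb1*, which were lower (13.0%). Treated and untreated libraries did not overlap for the called members alone, 5 after VLDLsep (47.4% of all genes tested) and 4 after CHYLsep (41.7%). In bulk RNA, fewer cells with a transcript and less of it per cell cannot be told apart. The median log2 fold change of the members was -0.06 after VLDLsep and 0.06 after CHYLsep, and that of all genes tested was -0.0003 and 0.0013. The pathway thus did not move in a single direction, as members with the largest changes in each direction were both receptors. Both treatments were compared with the same untreated libraries, so their results are not independent.

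**Figure D1:**
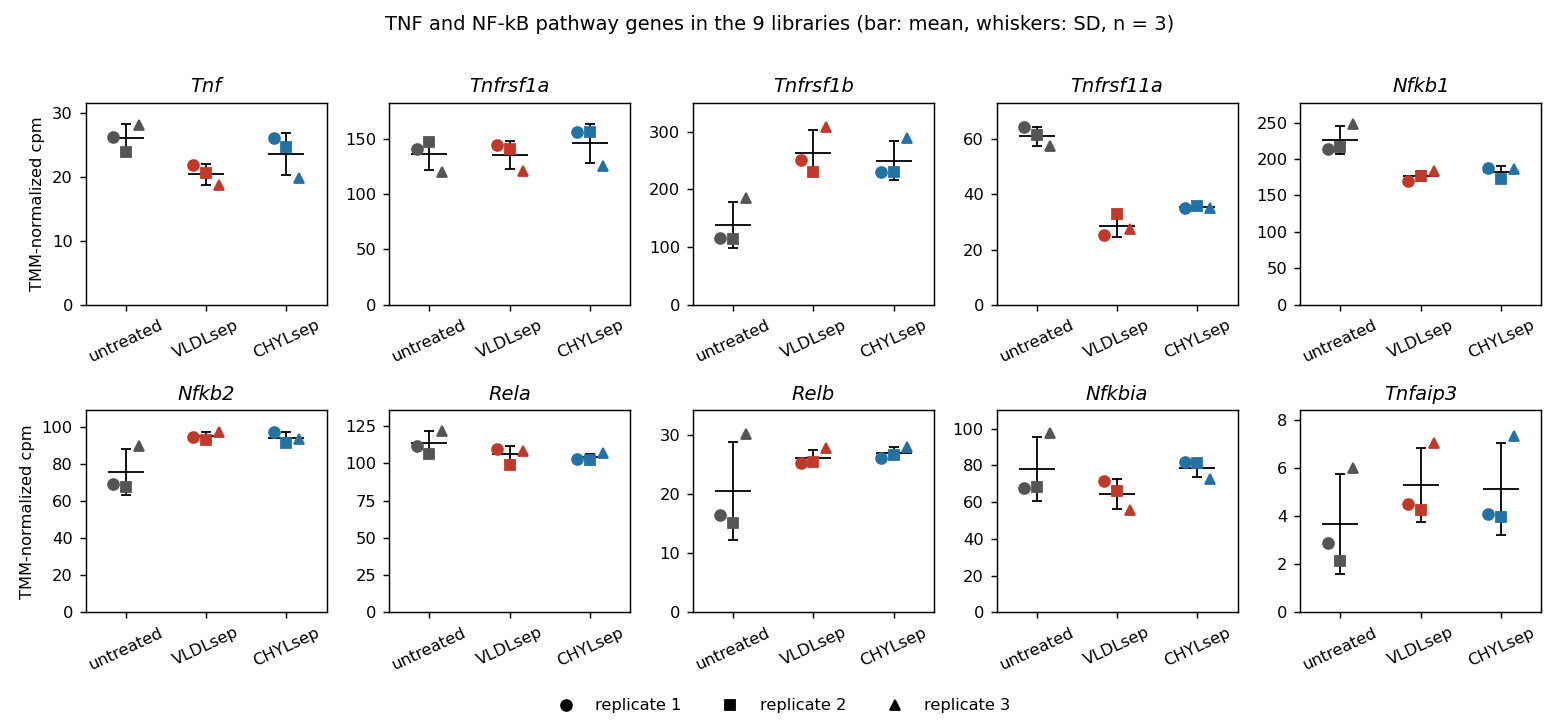
Level of each member (y axis, TMM-normalized cpm from 0) in every library of the untreated, VLDLsep and CHYLsep groups, with the symbol showing the replicate number, the bar the mean and the whiskers the SD (n = 3). The treated libraries lie above all untreated libraries for *Tnfrsf1b* and below them for *Tnfrsf11a* and *Nfkb1*, and untreated replicate 3 is high for *Tnfrsf1b*, *Nfkb2*, *Relb*, *Nfkbia* and *Tnfaip3*.

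*Tnf* (ENSMUSG00000024401, GRCm38 chromosome 17 from 35199381 to 35202007, minus strand) had 26.2, 23.9 and 28.2 cpm in the untreated libraries, 21.9, 20.7 and 18.7 cpm after VLDLsep and 26.1, 24.7 and 19.8 cpm after CHYLsep. All VLDLsep libraries were below all untreated ones, whereas the CHYLsep libraries overlapped with both groups. *Tnf* fell 1.28-fold after VLDLsep (log2 fold change -0.35, standard error 0.11, adjusted p = 0.029). After CHYLsep the log2 fold change was -0.15 (95% confidence interval -0.39 to 0.09, adjusted p = 0.34). The call after VLDLsep was lost when any of 4 libraries was left out, with an adjusted p of 0.072 without untreated replicate 1, 0.081 without untreated replicate 3, 0.066 without VLDLsep replicate 2 and 0.091 without VLDLsep replicate 3.

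The 3 receptors gave 3 different patterns. *Tnfrsf1b*, encoding TNF receptor 2 (ENSMUSG00000028599, chromosome 4 from 145213463 to 145246870, minus strand), had 115, 114 and 185 cpm in untreated libraries, 251, 231 and 308 cpm after VLDLsep and 229.8, 230.4 and 289.7 cpm after CHYLsep. Every treated library was above every untreated one, although untreated replicate 3 was well above the other two. *Tnfrsf1b* rose 1.94-fold after VLDLsep (log2 fold change 0.96, standard error 0.18, adjusted p = 0.0018) and 1.85-fold after CHYLsep (0.88, standard error 0.18, adjusted p = 0.0045). Both calls held under all 19 alternatives, with log2 fold changes between 0.84 and 1.19 after VLDLsep and between 0.77 and 1.11 after CHYLsep.

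*Tnfrsf11a*, encoding RANK (ENSMUSG00000026321, chromosome 1 from 105780718 to 105847981, plus strand), moved the other way. It had 64.3, 61.4 and 57.5 cpm in untreated libraries, 25.4, 32.7 and 27.4 cpm after VLDLsep and 35.1, 35.7 and 35.1 cpm after CHYLsep. Its 3 groups did not overlap with each other, with untreated cells highest and VLDLsep cells lowest. *Tnfrsf11a* fell 2.15-fold after VLDLsep (log2 fold change -1.11, standard error 0.08, adjusted p = 5.6e-06) and 1.73-fold after CHYLsep (-0.79, standard error 0.08, adjusted p = 6.7e-05), again under all 19 alternatives. After VLDLsep this was the largest change among the members, whereas after CHYLsep the rise of *Tnfrsf1b* (1.85-fold) was larger. The ligand of RANK, *Tnfsf11*, had no count in any library, which allows at most 0.126 to 0.137 cpm depending on the library (3 counts, counting error only).

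*Tnfrsf1a*, encoding TNF receptor 1 (ENSMUSG00000030341, chromosome 6 from 125349362 to 125362484, plus strand), had 141, 147 and 120.3 cpm in untreated libraries, 144, 141 and 121 cpm after VLDLsep and 156, 156 and 125 cpm after CHYLsep. The 3 groups overlapped, and replicate 3 was the lowest library of each. No difference was called: the log2 fold change was -0.01 after VLDLsep (95% confidence interval -0.24 to 0.23, adjusted p = 0.96) and 0.09 after CHYLsep (-0.14 to 0.33, adjusted p = 0.57). The ratio of *Tnfrsf1b* to *Tnfrsf1a* counts within a library does not depend on the normalization between libraries. It was 0.82, 0.776 and 1.54 in untreated libraries, 1.75, 1.64 and 2.56 after VLDLsep and 1.47, 1.48 and 2.32 after CHYLsep. The VLDLsep libraries did not overlap with the untreated ones (exact permutation test, p = 0.1), whereas the CHYLsep libraries did (exact permutation test, p = 0.3). With 3 libraries against 3, 0.1 is the smallest p this test can give. In all, 3 such ratios were examined, chosen with the values known, and over the 6 tests the adjusted p was 0.15 for VLDLsep and 0.3 for CHYLsep (exact permutation tests).

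**Figure D2:**
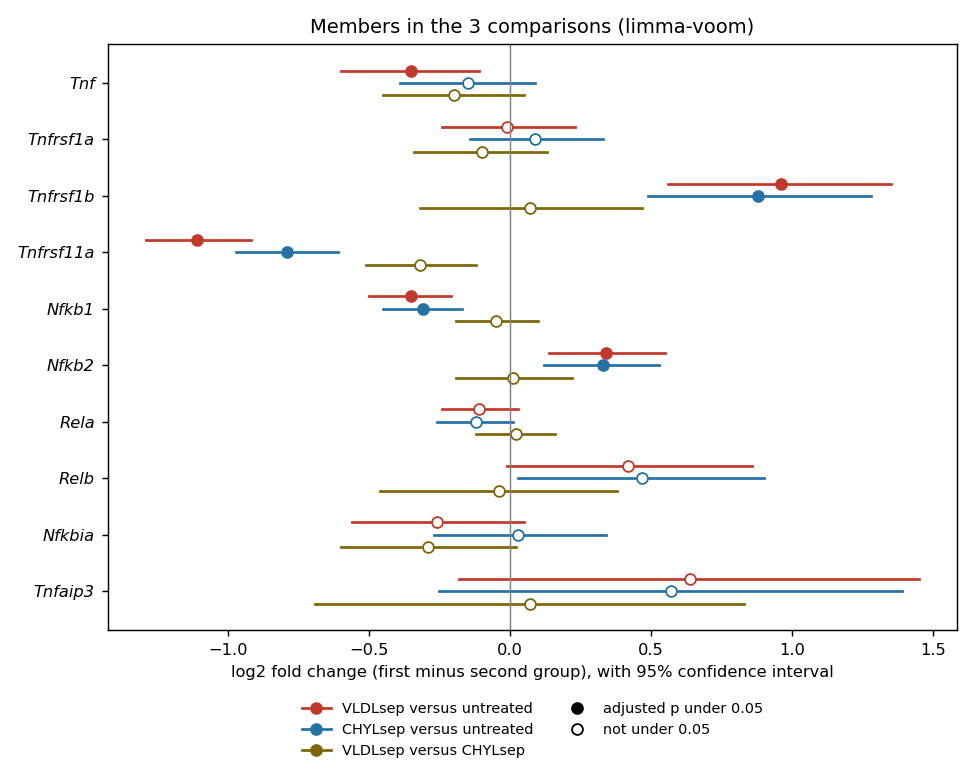
Log2 fold change of each member (x axis, first minus second group) with its 95% confidence interval in the 3 comparisons, from limma-voom. Filled points have an adjusted p under 0.05; they are at -0.35 (*Tnf*), 0.96 (*Tnfrsf1b*), -1.11 (*Tnfrsf11a*), -0.35 (*Nfkb1*) and 0.34 (*Nfkb2*) for VLDLsep versus untreated, and no point for VLDLsep versus CHYLsep is filled.

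Of the NF-κB subunits, the precursors of p50 and p52 changed in opposite directions. *Nfkb1* (ENSMUSG00000028163, chromosome 3 from 135584655 to 135691547, minus strand), encoding p105 and p50, had 214, 217 and 248 cpm in untreated libraries, 169.8, 177 and 184 cpm after VLDLsep and 188, 173 and 186 cpm after CHYLsep. All treated libraries were below all untreated ones. *Nfkb1* fell 1.28-fold after VLDLsep (log2 fold change -0.35, standard error 0.06, adjusted p = 0.0017) and 1.24-fold after CHYLsep (-0.31, standard error 0.06, adjusted p = 0.0056), and both calls held under all 19 alternatives.

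*Nfkb2* (ENSMUSG00000025225, chromosome 19 from 46304320 to 46312385, plus strand), encoding p100 and p52, had 69.3, 67.7 and 90.1 cpm in untreated libraries, 95, 93 and 97.5 cpm after VLDLsep and 97.4, 91.5 and 93.9 cpm after CHYLsep. The groups did not overlap, although untreated replicate 3 came close to the lowest CHYLsep library. *Nfkb2* rose 1.27-fold after VLDLsep (log2 fold change 0.34, standard error 0.09, adjusted p = 0.014) and 1.26-fold after CHYLsep (0.33, standard error 0.09, adjusted p = 0.024). The VLDLsep call was lost without untreated replicate 1 (adjusted p = 0.065) or replicate 2 (0.062). The CHYLsep call was lost without untreated replicate 1 (0.099) or 2 (0.096), without CHYLsep replicate 1 (0.082) or 3 (0.051), and when only library size was used to normalize (0.053). Exons of *Nfkb2* share 531 bases with *AC114539.1* and 299 bases with *Psd* on the opposite strand, which had means of 176 and 70 counts against 1994 for *Nfkb2*.

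Set against *Nfkb1* in the same library, *Nfkb2* was higher in every treated library. The ratio of *Nfkb2* to *Nfkb1* counts was 0.324, 0.312 and 0.364 in untreated libraries, 0.56, 0.527 and 0.53 after VLDLsep and 0.517, 0.529 and 0.504 after CHYLsep. Neither treated group overlapped with the untreated group (exact permutation tests, p = 0.1 for each, the smallest possible, and 0.15 after adjustment over the 6 tests). In this ratio untreated replicate 3 lay much closer to the other untreated libraries than to any treated one.

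*Rela* and *Relb* were not called in either comparison. *Rela* (ENSMUSG00000024927, chromosome 19 from 5637483 to 5648130, plus strand), encoding p65, had 112, 106 and 122 cpm in untreated libraries, 109.6, 98.7 and 108 cpm after VLDLsep and 103, 102 and 107 cpm after CHYLsep, and the groups overlapped. Its log2 fold changes were -0.11 (95% confidence interval -0.24 to 0.03, adjusted p = 0.22) and -0.12 (-0.26 to 0.01, adjusted p = 0.18). When only library size was used to normalize, both became -0.20 and were called (adjusted p = 0.017 and 0.019).

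*Relb* (ENSMUSG00000002983, chromosome 7 from 19606217 to 19629438, minus strand) depended on a single library. It had 16.4, 15 and 30.1 cpm in untreated libraries, 25.3, 25.4 and 27.7 cpm after VLDLsep and 26.1, 26.6 and 28 cpm after CHYLsep. All 6 treated libraries were above untreated replicates 1 and 2 and below untreated replicate 3. With all libraries the log2 fold change was 0.42 after VLDLsep (standard error 0.20, adjusted p = 0.12) and 0.47 after CHYLsep (standard error 0.20, adjusted p = 0.11). Without untreated replicate 3 it was 0.73 (adjusted p = 1.3e-04) and 0.78 (adjusted p = 1.5e-04). Leaving out the replicate 3 library of every group gave 0.69 (adjusted p = 6.7e-06) and 0.75 (adjusted p = 4.7e-06). The ratio of *Relb* to *Rela* counts was 0.146, 0.141 and 0.246 in untreated libraries, 0.231, 0.258 and 0.255 after VLDLsep and 0.254, 0.26 and 0.262 after CHYLsep. It overlapped between untreated and VLDLsep libraries (exact permutation test, p = 0.2, adjusted 0.24) and did not between untreated and CHYLsep libraries (exact permutation test, p = 0.1, adjusted 0.15).

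The 2 inhibitors, both early NF-κB targets, were not called with all libraries. *Nfkbia* (ENSMUSG00000021025, chromosome 12 from 55489410 to 55492647, minus strand) had 67.5, 68.5 and 97.9 cpm in untreated libraries, 71.8, 66.1 and 55.9 cpm after VLDLsep and 82, 81.1 and 72.9 cpm after CHYLsep. Replicate 3 was the highest library of the untreated group and the lowest of both treated groups, and the groups overlapped with untreated cells. The log2 fold change was -0.26 after VLDLsep (95% confidence interval -0.56 to 0.05, adjusted p = 0.18) and 0.03 after CHYLsep (-0.27 to 0.34, adjusted p = 0.89). Without the replicate 3 libraries it was 0.02 (adjusted p = 0.81) and 0.26 (adjusted p = 0.0019), so *Nfkbia* was called higher after CHYLsep in that setting.

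*Tnfaip3* (ENSMUSG00000019850, chromosome 10 from 19000910 to 19015657, minus strand) was the least abundant member. It had 2.86, 2.11 and 6 cpm in untreated libraries, 4.52, 4.27 and 7.05 cpm after VLDLsep and 4.08, 3.96 and 7.34 cpm after CHYLsep. Replicate 3 was the highest library of every group, and within each replicate number both treated libraries were above the untreated one. The log2 fold change was 0.64 after VLDLsep (standard error 0.37, adjusted p = 0.21) and 0.57 after CHYLsep (95% confidence interval -0.25 to 1.39, adjusted p = 0.3). With the replicate number as a block, *Tnfaip3* was called after VLDLsep (0.54, adjusted p = 0.015), which made 6 members called where 47.9% of all genes were. It was also called without untreated replicate 3 after VLDLsep (1.06, adjusted p = 0.042), and without all replicate 3 libraries after VLDLsep (0.83, adjusted p = 0.003) and CHYLsep (0.71, adjusted p = 0.012).

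Replicate 3 therefore bore on a subset of the members. The log2 ratio of replicate 3 to the mean of replicates 1 and 2 in the untreated group was 1.27 for *Tnfaip3*, 0.94 for *Relb*, 0.69 for *Tnfrsf1b*, 0.53 for *Nfkbia* and 0.39 for *Nfkb2*. Across all genes this ratio lay between -0.50 and 0.49 from the 5th to the 95th percentile. In the VLDLsep group it was 0.68 for *Tnfaip3* and 0.35 for *Tnfrsf1b*, but 0.12 for *Relb*, -0.30 for *Nfkbia* and 0.05 for *Nfkb2*. For *Relb* and *Nfkb2* the deviation was thus seen in the untreated replicate 3 library and not in the treated ones. For *Nfkbia* replicate 3 deviated in the opposite direction in the treated groups (-0.30 after VLDLsep and -0.16 after CHYLsep). Without the replicate 3 libraries, 7 members were called after VLDLsep (43.4% of all genes) and 7 after CHYLsep (33.8%). After VLDLsep 4 were higher (22.0% of all genes) and 3 lower (21.4%), and after CHYLsep 5 were higher (17.4%) and 2 lower (16.4%).

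**Figure D3:**
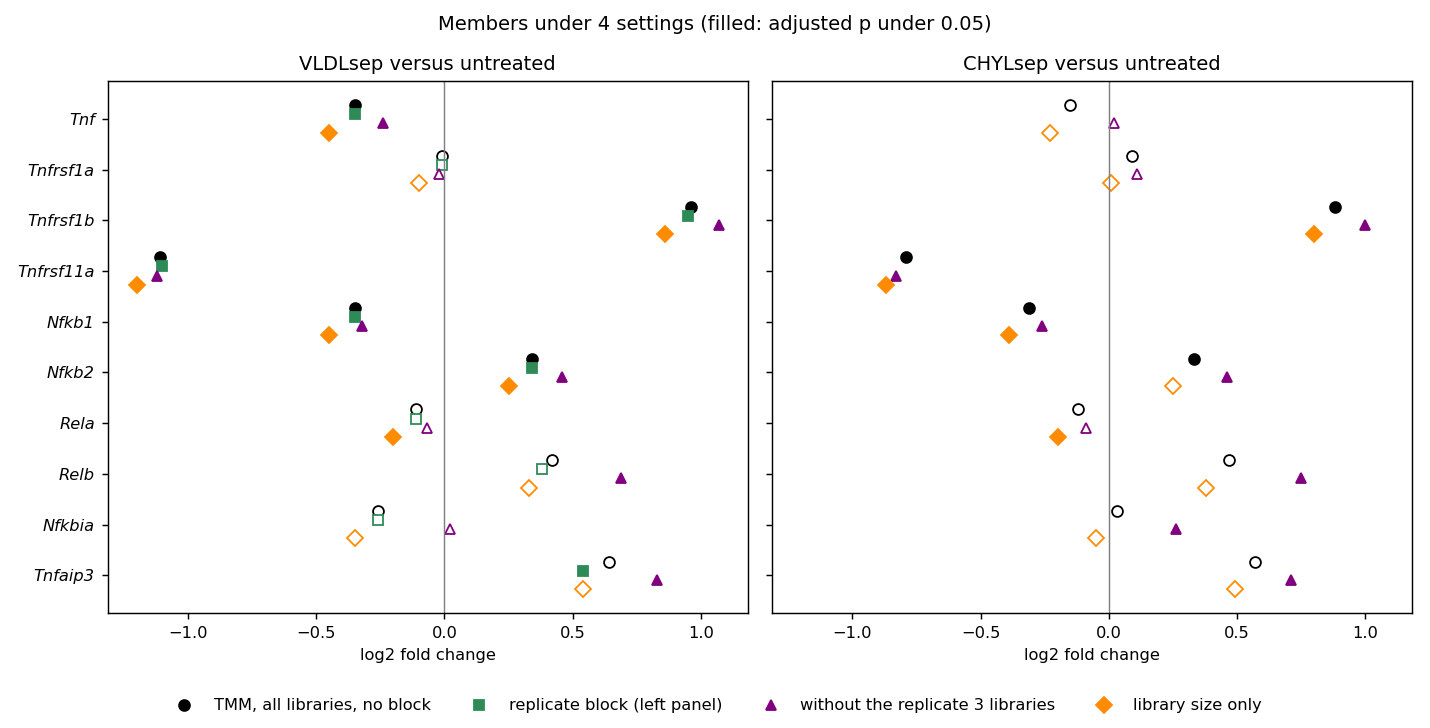
Log2 fold change of each member (x axis) against untreated cells after VLDLsep (left) and CHYLsep (right) under 4 settings, with the replicate block drawn on the left only; filled symbols have an adjusted p under 0.05. *Tnfrsf1b*, *Tnfrsf11a* and *Nfkb1* are filled throughout, whereas *Relb* moves from 0.42 to 0.69 and *Tnfaip3* from 0.64 to 0.83 after VLDLsep when the replicate 3 libraries are left out.

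Between the particles, none of the 10 members was called, and of all genes tested 0.00% were called (813 genes had an unadjusted p under 0.05; edgeR called 0 genes and DESeq2 24, none of them a member). The fitted difference was within 0.10 on the log2 scale for *Tnfrsf1a*, *Tnfrsf1b*, *Tnfaip3*, *Nfkb1*, *Nfkb2*, *Rela* and *Relb*. *Tnfrsf11a* was lower after VLDLsep than after CHYLsep by a log2 fold change of -0.32 (95% confidence interval -0.51 to -0.12, adjusted p = 0.56), and its groups did not overlap. *Nfkbia* gave -0.29 (-0.60 to 0.02, adjusted p = 0.79), also without overlap. These were the 2 members whose VLDLsep and CHYLsep libraries did not overlap, compared with 11.3% of all genes. Without the replicate 3 libraries *Nfkbia* was called lower after VLDLsep than after CHYLsep (-0.24, adjusted p = 0.0347), where 2.07% of all genes were called and 0.920% were called lower. The difference for *Tnf* was -0.20 (-0.45 to 0.05, adjusted p = 0.82), so its call after VLDLsep alone is no difference between the particles. The intervals also leave room for differences: that of *Tnfaip3* ran from -0.69 to 0.83, and that of *Nfkb1* only from -0.19 to 0.10.

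To compare the members with each other, levels were divided by exon length. In untreated cells the mean was 52.5 cpm per kb for *Tnfrsf1a* and 48.4 for *Nfkbia*, whose libraries overlapped, followed by 37 for *Rela* and 36.2 for *Tnfrsf1b*, which overlapped as well. *Nfkb1* (18.8 cpm per kb), *Nfkb2* (16.5) and *Tnf* (15.9) formed another set of overlapping neighbours. *Tnfrsf11a* (10.2), *Relb* (5.28) and *Tnfaip3* (0.506) followed, each apart from the next. The untreated libraries of the TNF receptors overlapped, as the highest of *Tnfrsf1b* (48.4 cpm per kb) lay above the lowest of *Tnfrsf1a* (46.4). After VLDLsep the means were 69 ± 10.5 cpm per kb for *Tnfrsf1b* and 52.2 ± 4.91 for *Tnfrsf1a* (SD, n = 3), and after CHYLsep 65.5 ± 9.01 and 56.2 ± 6.84. This order rests on the length used: with the longest transcript *Tnfrsf1a* had 62.7 cpm per kb after VLDLsep and 67.5 after CHYLsep, and its libraries overlapped with those of *Tnfrsf1b* after both particles. *Relb* and *Tnfrsf11a* also changed places, with *Relb* at 6.73 and *Tnfrsf11a* at 4.76 cpm per kb after VLDLsep. The place of *Nfkb1* also depends on the length: its merged exons cover 12061 bases and its longest transcript 4149 bases, with which its level would be 54.5 cpm per kb, the second highest.

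The other genes of the pathway were examined as 8 lists with 133 genes, of which 100 were expressed above the filter. After VLDLsep 46 of the 100 were called, 23 higher and 23 lower, compared with 35.6% of all genes, and after CHYLsep 34 were called, 18 higher and 16 lower, compared with 25.7%. The median log2 fold change was 0.07 and 0.06. With the replicate number as a block, 67 were called after VLDLsep, 39 higher and 28 lower (47.9% of all genes called). When the replicate 3 libraries were left out, 97 were tested, of which 65 were called after VLDLsep, 40 higher and 25 lower (43.4% of all genes), and 53 after CHYLsep, 36 higher and 17 lower (33.8%). With all libraries and no block, most lists held called genes of both directions. The exceptions were the ligands, of which the called genes were all lower, and the kinases upstream of IκB, of which they were all higher. Among the ligands, *Tnfsf10* and *Tnfsf15* passed the filter through the untreated libraries and could only be called lower. Of the kinases only 2 were called after each particle, among them *Ikbkg*, whose exons overlap with another gene that rose.

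Of 17 other ligands of the TNF superfamily, 10 were tested, and 7 were called after VLDLsep, all of them lower (17.9% of all genes were called lower), with a median log2 fold change of -0.67. After CHYLsep 3 were called, also lower (13.0% of all genes), with a median of -0.33. Among the genes called after both particles, *Tnfsf10* and *Tnfsf15* would not have passed the count filter without the untreated libraries. A call of these genes could therefore only be lower, and the counts lean on that. *Tnfsf15* had 0.464 to 0.673 cpm in untreated and 0.18 to 0.41 cpm in VLDLsep libraries. When the replicate 3 libraries were left out, 8 ligands were tested, and 5 were called lower after VLDLsep (21.4% of all genes) and 1 after CHYLsep (16.4%). *Tnfsf13b* (encoding the B cell survival factor BAFF) had 7.7, 7.5 and 8.49 cpm in untreated libraries, 3.74, 4.63 and 3.55 cpm after VLDLsep and 5.01, 4.37 and 3.33 cpm after CHYLsep, and fell 1.99-fold and 1.88-fold (adjusted p = 6.2e-04 and 0.0015). *Tnfsf14* (LIGHT) fell from 3.2, 4.34 and 4.46 cpm to 1.28, 1.84 and 1.87 cpm after VLDLsep (adjusted p = 0.0016). *Ltb* (lymphotoxin beta) had 2.78, 2.23 and 3.3 cpm in untreated and 1.87, 1.44 and 1.23 cpm in VLDLsep libraries (log2 fold change -0.87, adjusted p = 0.014); the call was lost without VLDLsep replicate 3 (-0.73, adjusted p = 0.054) and without all replicate 3 libraries (-0.60, adjusted p = 0.075). The death receptor ligand gene *Tnfsf10* (TRAIL) was near the limit of detection, with 0.841 to 1.67 cpm in untreated and 0.135 to 0.319 cpm in VLDLsep libraries (adjusted p = 0.0035); its call after CHYLsep (adjusted p = 0.022) was lost without untreated replicate 2 (0.056), untreated replicate 3 (0.055) or CHYLsep replicate 3 (0.081), and without all replicate 3 libraries the log2 fold change was -0.86 (adjusted p = 0.099).

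Of 24 other receptors, 12 were tested, with 3 called higher and 1 lower after each particle. These were 33.3%, compared with 35.6% of all genes after VLDLsep and 25.7% after CHYLsep. After VLDLsep 4 were higher and 3 lower with the replicate block (47.9% of all genes called), and 5 higher and 3 lower without the replicate 3 libraries (43.4%). *Tnfrsf9* (the costimulatory receptor 4-1BB) rose from 2.19, 2.99 and 2.79 cpm to 5.57, 5.35 and 4.87 cpm after VLDLsep and to 4.74, 5.58 and 3.78 cpm after CHYLsep (adjusted p = 0.0016 and 0.0079). *Tnfrsf26* rose 1.81-fold and 1.66-fold (adjusted p = 2.0e-06 and 9.8e-06), whereas *Tnfrsf22*, encoding a decoy receptor for TRAIL, fell 1.51-fold and 1.55-fold (adjusted p = 0.0012 and 0.0014). *Tnfrsf22*, *Tnfrsf23* and *Tnfrsf26* are similar genes, so their reads could have been divided between them. *Tnfrsf8* (CD30) was called after CHYLsep (log2 fold change 1.14, adjusted p = 0.017) at levels under 1 cpm, and lost the call without untreated replicate 1 (0.072) or 2 (0.07) and with DESeq2 (0.1).

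TNF itself is controlled after transcription by proteins that bind its mRNA and by the protease that releases it. Of 9 such genes 7 were tested, and after each particle 2 were higher and 1 lower. These were 42.9%, compared with 35.6% of all genes after VLDLsep and 25.7% after CHYLsep. *Zfp36*, encoding tristetraprolin, which promotes decay of *Tnf* mRNA, had 41.7, 41.8 and 54.4 cpm in untreated libraries, 66, 57.4 and 63.4 cpm after VLDLsep and 55.7, 55.2 and 60.8 cpm after CHYLsep. It rose 1.36-fold after VLDLsep (adjusted p = 0.0054). The call after CHYLsep (1.26-fold, adjusted p = 0.036) was lost without any 1 of the untreated replicates 1 (0.14) and 2 (0.13) and of the CHYLsep replicates 1 (0.071), 2 (0.062) and 3 (0.1). Its relative *Zfp36l1* fell from 99.4, 91.9 and 81.8 cpm to 33.6, 35.1 and 17.4 cpm after VLDLsep and to 38.4, 40.2 and 19.8 cpm after CHYLsep, which was 3.31-fold and 2.89-fold (adjusted p = 6.1e-04 and 0.0018). *Zfp36l1* shares 1672 exonic bases with *Gm26669* on the opposite strand (a mean of 217 counts against 1172), which also fell. *Adam17*, the TNF-releasing protease, had log2 fold changes of 0.08 and 0.08 (adjusted p = 0.54 and 0.6), and without the replicate 3 libraries of 0.12 (adjusted p = 0.058) and 0.13 (adjusted p = 0.049, called).

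Among 22 genes of the receptor complex, all tested, 7 were higher and 3 lower after VLDLsep (45.5%, compared with 35.6% of all genes). After CHYLsep 4 were higher and 2 lower (27.3%, compared with 25.7%). Without the replicate 3 libraries 7 were higher and 3 lower after CHYLsep (45.5%, compared with 33.8%). The adaptor genes *Tradd* and *Traf2* were not called: *Tradd* had log2 fold changes of -0.10 and 0.03 and *Traf2* of 0.12 and 0.07. *Mlkl*, the executor of necroptosis, rose from 35, 36.3 and 32.3 cpm to 55.8, 56.9 and 52.2 cpm after VLDLsep and 50.6, 52.7 and 49.8 cpm after CHYLsep (adjusted p = 1.9e-05 and 1.1e-04). *Traf5* fell 1.58-fold after VLDLsep (adjusted p = 0.0089) and was not called after CHYLsep with all libraries and no block (log2 fold change -0.34, adjusted p = 0.13). It was called after CHYLsep without untreated replicate 3 (-0.51, adjusted p = 0.011) and without all replicate 3 libraries (-0.43, adjusted p = 0.014). *Ripk1*, the kinase of the complex, had a log2 fold change of 0.19 after VLDLsep (adjusted p = 0.037). The call was lost without any of 6 single libraries, with adjusted p values from 0.053 (without CHYLsep replicate 2) to 0.13 (without VLDLsep replicate 1). It was also lost when only library size was used to normalize (0.29), without the filter (0.069) and with only the groups compared (0.062). After CHYLsep *Ripk1* was not called (0.18, adjusted p = 0.068), but it was without the replicate 3 libraries (0.20, adjusted p = 0.0099) or without VLDLsep replicate 3 (0.18, adjusted p = 0.023). Exons of *Ripk1* share 241 bases with *Serpinb6a* on the opposite strand, which had a mean of 4946 counts against 1905. *Serpinb6a* itself rose, with log2 fold changes of 0.45 and 0.37, and the part of its reads in the *Ripk1* counts was not tested.

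Of the 8 kinases and their partners upstream of IκB, 2 were called, both higher, after each particle. Among all genes tested, 35.6% were called after VLDLsep (17.8% higher) and 25.7% after CHYLsep (12.7% higher). *Ikbkg*, encoding the regulatory subunit NEMO, had 36, 35.6 and 36 cpm in untreated libraries, 63, 64.4 and 63.4 cpm after VLDLsep and 66.5, 67.4 and 62.5 cpm after CHYLsep (adjusted p = 1.5e-06 and 1.4e-06). However, exons of *Ikbkg* share 418 bases with *G6pdx* on the opposite strand, which had a mean of 14037 counts against 1235 and itself rose with log2 fold changes of 1.07 and 1.08. Whether the counting used strand was not given in the sources used here, and the part of *G6pdx* reads in the *Ikbkg* counts was not tested. The catalytic subunits *Chuk* and *Ikbkb* had log2 fold changes between -0.04 and 0.08, none of them called.

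Of the 6 other NF-κB and IκB genes, 1 was higher and 3 lower after VLDLsep (35.6% of all genes called). After CHYLsep 1 was higher and 2 lower (25.7% of all genes called). When the replicate 3 libraries were left out, 3 were higher and 3 lower after VLDLsep (43.4%). In that setting 3 were higher and 2 lower after CHYLsep (33.8%). *Rel*, encoding the subunit c-Rel, fell 1.21-fold and 1.27-fold (adjusted p = 0.015 and 0.0073), with 36.5, 35.7 and 42.9 cpm in untreated libraries and 29.7 to 32.7 cpm in the 6 treated ones; without the replicate 3 libraries the log2 fold change after VLDLsep was -0.17 in place of -0.28 (adjusted p = 0.038). *Nfkbiz*, encoding the nuclear regulator IκBζ, fell 1.5-fold and 1.63-fold (adjusted p = 0.0072 and 0.0041). Of 11 other feedback inhibitors, 3 were higher and 1 lower after VLDLsep (36.4%, compared with 35.6% of all genes). After CHYLsep 2 were higher and 1 lower (27.3%, compared with 25.7%). With the replicate block 7 were higher and 2 lower after VLDLsep (47.9% of all genes called). Without the replicate 3 libraries 7 were higher and 1 lower after VLDLsep (43.4%) and 5 higher and 1 lower after CHYLsep (33.8%). With all libraries and no block the one that fell was *Usp18*, an interferon-induced protease that limits interferon signalling, by 2.28-fold and 1.76-fold (adjusted p = 0.0012 and 0.01), where the log2 fold change after CHYLsep was -0.82 with all libraries and -0.49 without the replicate 3 libraries (adjusted p = 0.014). *Cyld* was not called (log2 fold changes -0.15 and -0.12), except with the replicate block after VLDLsep (adjusted p = 0.041). *Tnip1*, which encodes a partner of A20, behaved like *Tnfaip3*: it was not called with all libraries (0.42 and 0.27, adjusted p = 0.11 and 0.34), but it was without untreated replicate 3 (0.65 and 0.50, adjusted p = 0.008 and 0.036), without all replicate 3 libraries (0.54 and 0.35, adjusted p = 5.0e-06 and 4.3e-04) and with the replicate block after VLDLsep (0.41, adjusted p = 3.0e-04).

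**Figure D4:**
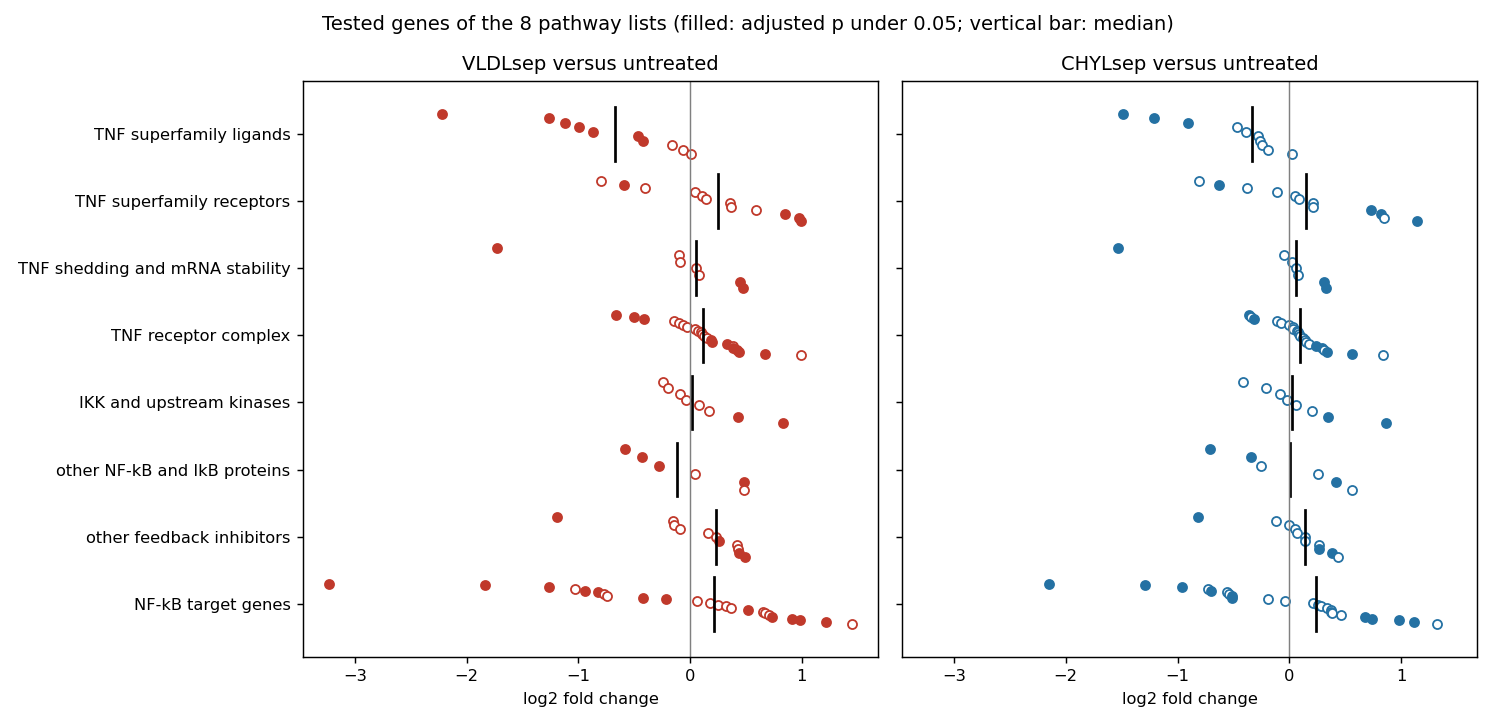
Log2 fold change (x axis) of the 100 tested genes in the 8 lists of other pathway genes after VLDLsep (left) and CHYLsep (right) compared with untreated cells; filled points have an adjusted p under 0.05 and the vertical bars are medians. The ligands lie mostly to the left, with a median of -0.67 after VLDLsep, whereas the other lists have genes on both sides of 0.

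Finally, 36 genes known as NF-κB targets were examined, of which 24 were tested. After VLDLsep 5 were higher and 7 lower (17.8% and 17.9% of all genes). After CHYLsep 4 were higher and 6 lower (12.7% and 13.0% of all genes). The median log2 fold changes were 0.22 and 0.24. With the replicate block 21 were called after VLDLsep, 12 higher and 9 lower (47.9% of all genes called). Without the replicate 3 libraries 12 were higher and 9 lower after VLDLsep (22.0% and 21.4% of all genes). In that setting 12 were higher and 7 lower after CHYLsep (17.4% and 16.4% of all genes). The balance between directions thus depended on the setting. The monocyte-attracting chemokine gene *Ccl2* had 129, 129 and 194 cpm in untreated libraries, 40.5, 41.8 and 41.5 cpm after VLDLsep and 56.6, 65.8 and 58.9 cpm after CHYLsep, and fell 3.58-fold and 2.45-fold (adjusted p = 7.7e-06 and 9.7e-05). Its neighbour *Ccl7* fell from 4.71, 4.76 and 9.6 cpm to 0.411, 1.03 and 0.546 cpm after VLDLsep and to 1.64, 1.17 and 1.23 cpm after CHYLsep (adjusted p = 4.1e-04 and 0.0021). *Bcl2l1*, which protects from apoptosis, fell 1.92-fold and 1.63-fold, *Irf1*, a transcription factor of interferon responses, 1.77-fold and 1.42-fold, and the chemokine gene *Ccl4* 1.33-fold and 1.43-fold, all with an adjusted p of 0.0045 or less.

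In contrast, *Ptgs2*, encoding the prostaglandin-forming enzyme COX-2, rose from 13.4, 16.2 and 10.1 cpm to 27.7, 30.5 and 32.7 cpm after VLDLsep and to 28.4, 30.6 and 25.7 cpm after CHYLsep (2.33-fold and 2.17-fold, adjusted p = 9.8e-05 and 3.0e-04). *Tnfaip2*, first found as a TNF-induced gene, had 101, 95.5 and 144 cpm in untreated libraries and 213 to 233 cpm in the 6 treated ones, a rise of 1.97-fold and 1.98-fold (adjusted p = 1.5e-04 and 2.4e-04). The kinase gene *Pim1* rose 1.88-fold and 1.68-fold (adjusted p = 0.0011 and 0.0058). Targets of NF-κB thus fell and rose in the same libraries, as did the members. Between the particles limma-voom called no pathway gene with all libraries, whereas DESeq2 called *Ccl2* (log2 fold change -0.55, adjusted p = 0.0393).

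As a description, the genes whose levels followed those of *Tnf* most closely over the 9 libraries were *Kti12* (Pearson's r 0.977), *Tnfsf12* (0.964), encoding another TNF superfamily ligand, and *Taok2* (0.949), among 9695 genes compared. For *Nfkbia* they were *Ifngr2* (0.936), encoding a chain of the interferon gamma receptor, *Utp3* (0.931) and *Aim2* (0.917). The 9 points share 3 treatments and the deviation of the replicate 3 libraries, and *Tnfsf12* was also among the ligands called lower after VLDLsep.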

How the data were processed

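RNA of RAW 264.7 cells in 3 groups of 3 libraries was sequenced as paired-end reads. According to the methods, the authors quantified GENCODE transcripts of GRCm38.p6 with Salmon 0.14.1, summarized them with tximport and deposited 1 estimated count per gene and library. The counts are described as scaled for library size and transcript length, but among the values above 10 in the file 58.3% were whole (tolerance 1e-06), and the table was treated as unscaled. Symbols, coordinates and exon lengths came from GENCODE M21 (GRCm38), which matched 54346 of 54432 gene identifiers. Whether the libraries kept strand was not given in the sources used here. Genes that share reads with similar or overlapping genes are uncertain.

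The 12637 genes that exceeded 10 counts in 3 or more of the 9 libraries were normalized by TMM (edgeR 4.0.16) and fitted with limma 3.58.1 and voom weights in R 4.3.3, in 1 model of 3 groups without a replicate block, with Benjamini-Hochberg adjustment. The steps were tested on simulated data. Estimated counts were rounded for edgeR's quasi-likelihood test and DESeq2 1.42.0. The other alternatives were limma-trend (prior count 2), upper-quartile scaling or library size alone, filters at more than 50 counts or absent, only the groups compared, a replicate block, each library left out, and all replicate 3 libraries left out. Depth was 22393893 to 22856792 counts, so that 10 counts correspond to 0.442 cpm.

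Groups share replicate numbers. Deviations of same-numbered libraries from their group means correlated across genes with r of 0.138, 0.132 and 0.293 between VLDLsep and untreated. VLDLsep replicate 2 and untreated replicate 1, which differ in number, gave 0.116, so r does not settle whether the numbers 1 and 2 pair the libraries. For replicate 3 the values stood apart, as its pairs with another number gave r of -0.217 to -0.121. What the replicate 3 libraries share was not tested. The labels do not say what a number marks. The main tests used no replicate block, and fits with a block are given as an alternative. With the block 47.9% of all genes were called after VLDLsep, compared with 35.6% without it.

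The members and lists were chosen with earlier results of these data known. Named besides the members were the genes of each list that were called in a comparison with untreated cells with an absolute log2 fold change over 0.5, at most the 4 with the smallest p (8 for the target genes), and 11 signalling genes whatever their values; genes named for a count outside this rule were chosen after their values were seen.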

Additional observations from a re-analysis of the deposited data

How the results depend on the processing

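Under 19 alternatives, 1679 values of single genes kept their direction and their side of the threshold, 30 gained and 37 lost a call, and 31 changed sign; causes were not tested. The members called after VLDLsep (5) ranged from 3 to 6 with single libraries left out (3 without untreated replicate 1, where *Tnf* and *Nfkb2* were lost) and those after CHYLsep (4) from 3 to 5; pathway genes called after CHYLsep ranged from 28 to 45, and between the particles 0 members and 0 pathway genes were called in each. Without the replicate 3 libraries, 7 members and 53 pathway genes were called after CHYLsep, and 1 member (*Nfkbia*) and 3 other pathway genes (*Bcl2l1*, *Ccl2* and *Tlr2*) between the particles. DESeq2 called 1 pathway gene between the particles (*Ccl2*); its adjusted p for *Tnf* and *Tnfaip3* there was missing.

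Same-numbered CHYLsep and untreated libraries gave r of 0.124, 0.0684 and 0.338, and VLDLsep and CHYLsep libraries 0.0286, 0.117 and 0.357. CHYLsep replicate 2 gave 0.155 with untreated replicate 1, so here too r does not settle a pairing of replicates 1 and 2. Pairs of replicate 3 with another number gave -0.237 to -0.153 between CHYLsep and untreated libraries, and -0.254 to -0.166 between the particles. With the replicate block, 7 members (39.2% of all genes) and 61 pathway genes were called after CHYLsep, with *Tnfaip3* (0.50), *Rela* (-0.12), *Relb* (0.43), *Traf5* (-0.35), *Ripk1* (0.18) and *Tnip1* (0.27) among those gained, and no pathway gene between the particles; not every library correlated best with its own number.

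The values that changed sign were all uncalled in that setting. After VLDLsep these were *Tnfrsf1a* (-0.10 to 0.07 without single libraries, with 0.02 and 0.05 without untreated replicates 1 and 2), *Nfkbia* (0.02 without replicate 3, -0.35 to -0.08 without single libraries), *Adam17* and *Chuk* (-0.01 with library size only) and *Tradd* (-0.17 to 0.005 without single libraries, 0.02 without replicate 3). After CHYLsep these were *Tnf* (0.02 without replicate 3, -0.24 to -0.03 without single libraries) and *Nfkbia* (-0.05 with library size only, -0.06 to 0.21 without single libraries, with -0.05 and -0.001 among them). With library size only they were also *Adam17* (-0.002), *Tradd* (-0.05), *Traf2* (-0.01) and *Chuk* (-0.02). Without single libraries they were also *Tradd* (-0.002 to 0.05), *Traf2* (-0.02 to 0.12) and *Ikbkb* (-0.04 to 0.004, with 0.001), and without replicate 3 *Ikbkb* (0.004). *Nfkbia* (0.26, called) and *Tradd* (0.06, not called) kept their sign after CHYLsep without replicate 3. Between the particles these were *Tnfrsf1b* (-0.04 to 0.18), *Tnfaip3* (-0.16 to 0.35, with -0.06 and -0.08), *Nfkb2* (-0.007 to 0.04, with -0.003) and *Rela* (-0.009 to 0.07, with -0.001) without single libraries and *Nfkb2* (-0.005) without replicate 3.

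With the longest transcript as the length, the untreated level in cpm per kb became 63.1 for *Tnfrsf1a*, 12.1 for *Tnfrsf11a*, 54.5 for *Nfkb1*, 19.7 for *Nfkb2* and 41.8 for *Rela*. The depth limits *Tnfaip3* most, with 50 to 161 counts per library.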

Other observations

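Since *Tnfrsf11a* encodes the osteoclast receptor RANK, 8 osteoclast markers were examined. Of these, 5 (*Acp5*, *Calcr*, *Oscar*, *Ocstamp* and *Atp6v0d2*) had at most 5 counts in any library and were not tested. *Ctsk*, the bone-degrading protease cathepsin K, had 0.819 to 2.2 cpm in all libraries and a log2 fold change of -0.06 after VLDLsep and -0.01 after CHYLsep. *Nfatc1*, a transcription factor of osteoclast formation, had 43.4, 42.6 and 41.4 cpm in untreated libraries, 37.6, 35.8 and 29.8 cpm after VLDLsep and 37.6, 32.7 and 32.9 cpm after CHYLsep, and fell 1.24-fold after each (adjusted p = 0.018 and 0.025). *Dcstamp*, required for the fusion of osteoclast precursors, rose from 9.13, 9.44 and 12.5 cpm to 14, 14.7 and 15.2 cpm after VLDLsep and to 13.7, 13.8 and 17.1 cpm after CHYLsep (adjusted p = 0.011 and 0.014). The osteoclast markers thus did not move together with *Tnfrsf11a*.

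*Traf1*, a textbook NF-κB target that encodes an adaptor of TNF receptor 2, fell outside the rule for named genes and was chosen after its values were seen. It had 6.73, 6.62 and 19.4 cpm in untreated libraries, 16.9, 15 and 26.6 cpm after VLDLsep and 15.1, 13 and 25.1 cpm after CHYLsep, so that replicate 3 was highest in every group, and was not called with all libraries (log2 fold changes 0.99 and 0.84, adjusted p = 0.074 and 0.16). *Ikbke* had 49, 49.1 and 73.2 cpm in untreated libraries and 46.7 to 51 cpm in the 6 treated ones, a further gene that was high in untreated replicate 3 alone; it was likewise chosen after its values were seen.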
